A study of Mus musculus with 10 samples.

Results

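Actin filaments and the myosins that pull on them were followed at the transcript level in the brain of mice without CIN85, through every array probe that carries a single gene symbol of the actins, the Arp2/3 complex and other actin-related proteins, the filament capping and nucleating proteins and the myosins. Members were chosen by gene name alone and the rule used no measured value, though earlier results of these data were known when it was set. The rule found 68 genes of the 9930 that a single-symbol probe names. They are read by 93 probes, out of 14030 with a single symbol and 20355 on the arrays. Of these, 85 probes for 63 genes were measured on each dye orientation in 4 or 5 mice and were tested.

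Brain RNA came from 5 male Cin85-/- mice aged 15 weeks. Each mouse was compared with a single pool of RNA from male wildtype (wt) mice of 15 weeks on 2 two-colour arrays. On the first the mutant was labelled with Cy5, and on the second with Cy3, so that the dyes were swapped between the 10 arrays. The pool holds 5 wildtype mice by the series design and 6 by the labelling protocol, and it is the only control, so the spread between wildtype animals was not measured. The mice carry the mutation in the whole body as far as the labels say, and the allele is not described further. Whole brain RNA is a bulk sample, so fewer cells of a type and less RNA per cell cannot be told apart. The titles give brain as the tissue, while the source name of the mutant channel holds an unexplained abbreviation, Kdn. Ratios to a pool give no level, and the tissue therefore could not be checked against its markers.

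Actin monomers assemble into polar filaments that grow at the barbed end and shrink at the pointed end. The Arp2/3 complex starts branches on existing filaments when proteins of the WASP family switch it on, formins and Ena/VASP proteins lengthen filaments, capping protein stops growth at barbed ends, and cofilin severs old filaments. Myosins walk along filaments or slide them. In neurons this machinery shapes dendritic spines, growth cones and the sites of endocytosis. CIN85 and its paralog CD2AP bind capping protein, which links these adaptors to actin at endocytic sites. Cd2ap, Capza1, Capza2, Actr2, Cfl2 and the Diap formin genes are named by none of the single-symbol probes and were not analysed here.

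All values are log2 ratios as the authors deposited them, with each array centred on its median. The value of a mouse is the mean of its 2 arrays. The labels do not say which sample is the numerator, nor whether the sign of the Cy3 columns was changed before deposit. Signs are therefore called positive or negative, not higher or lower in the mutant. If the columns were not turned, the difference from the pool is instead the Cy5 array minus the Cy3 array, divided by 2. This is called the orientation term here. Whichever quantity is not the difference from the pool then holds the difference between the dyes. The values under the 2 readings are therefore not 2 estimates of the same difference. Results are given for the values as deposited first, and for the orientation term after that.

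The arrays held between 16816 and 19424 values, and member probes had all 10 values in 74.2% of cases, against 66.7% of all probes. The array of mouse 3 with the mutant in Cy3 stood apart. It had the fewest values and the widest spread, with a standard deviation of 1.38 where the other 9 arrays had 0.705 to 0.995, and 17 of the 93 member probes had no value on it, against 1 to 4 on the others. Mouse 3 was the mouse farthest from the median in 34 of the 69 member probes measured in all 5 mice (49.3%, against 45.2% over all probes). Without it the mean changed sign in 18 of the 74 tested member probes it entered and changed sign or moved by over 1.5 times in 53. These counts were not made over all tested probes. Means without mouse 3 are given below for the probes described most fully. Sh3kbp1, which encodes CIN85, gave 0.0082 ± 0.14 (SD, n = 5) on its tested probe, with an orientation term of 0.12 ± 0.089 (SD, n = 5). Neither value passed, with adjusted p of 0.989 and 0.442 by limma. A second probe, 4508, was measured on only 4 arrays, too few for the test. It read 2.71, 3.19 and 17.65 on the arrays of mice 2, 4 and 5 with the mutant in Cy5, the last being the repeated extreme ratio of its array, and -2.38 on the array of mouse 4 with the mutant in Cy3. The sign of that probe thus differed between the orientations in mouse 4, the 1 mouse with both arrays, where the orientation term was 2.78 and the value as deposited 0.41. Of the 1024 repeated extreme ratios over all probes, 384 were positive with the mutant in Cy5 and 640 negative with it in Cy3. The sign of such a ratio therefore followed the orientation of its array, whatever the probe. Which stretch of the transcript either Sh3kbp1 probe reads is not given, and the values of these probes do not settle the direction.

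Actin and myosin transcripts gave no called difference from the pool. None of the 85 probes passed an adjusted p of 0.05 by limma, where 0% of all 16939 tested probes did, and the smallest adjusted p among members was 0.911. An unadjusted p under 0.05 was found for 4 member probes (4.71%), 2 positive and 2 negative, against 3.73% of all tested probes. With the probes of a gene averaged, 0 of 63 member genes passed, where 0% of 8740 genes did, and an unadjusted p under 0.05 was found for 3 member genes (4.76%; Myl12a, Myo5b and Vasp), where 3.39% of all genes had one. The means ran from -0.59 to 0.48, with 49 positive and 36 negative, and 57.6% of members were positive beside 50.1% of all tested probes. Their median was 0.04, beside 6e-04 over all tested probes, and the medians of the 5 mice were 0.032, 0.043, 0.097, -0.029 and -0.041. The mouse medians lay on both sides of 0. Without mouse 3 the median of the members was 0.0101, and without mouse 5 it was 0.0122.

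For the values as deposited, the 95% interval of limma lay within a 1.5-fold difference in either direction for 49 of the 85 probes (57.6%). It lay within 2-fold for 74 (87.1%). Over all tested probes these shares were 60.7% and 85.8%. The spread between mice was also like that of the arrays at large, with a median standard deviation of 0.339 for members and 0.34 for all probes. Of the 69 member probes measured in every mouse, 5 kept 1 sign throughout (7.25%), as 7.01% of such probes on the whole array did. These 5 were probes of Myh10, Myl12a, Myo5b, Vcl and Wasf2.

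**Figure D1:**
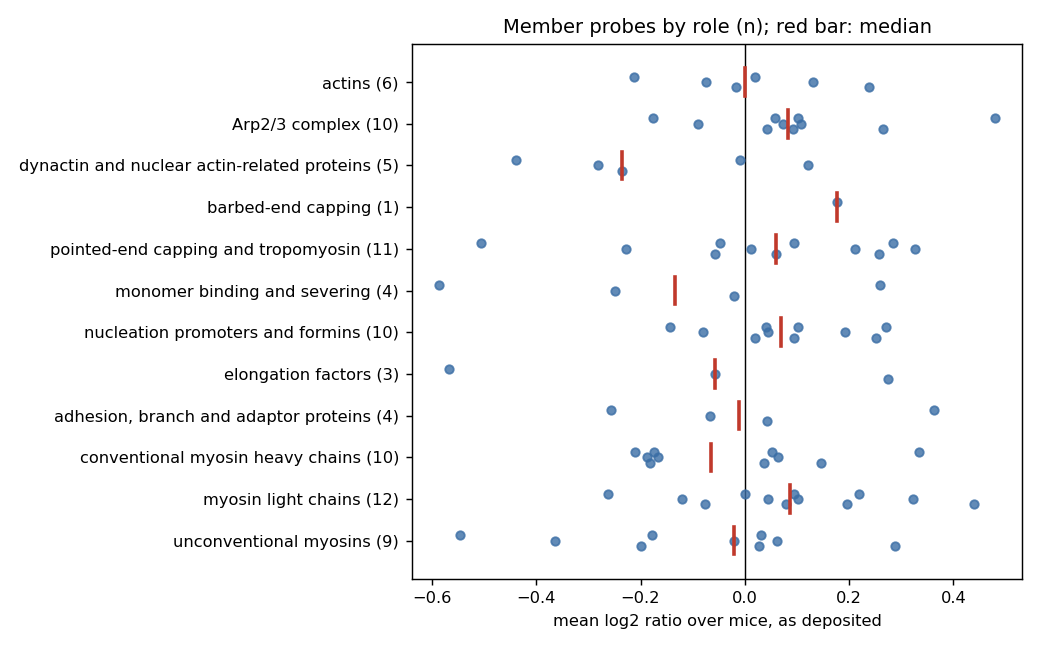
Each point is the mean log2 ratio over 4 or 5 mice of one tested member probe, on the x axis, with the probes grouped by the role of their protein on the y axis and the number of probes in parentheses; red bars mark group medians. Points of 11 of the 12 groups lie on both sides of 0 and only barbed-end capping, with 1 probe, does not, and all 85 means lie between -0.59 and 0.48.

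The cytoplasmic actins Actb and Actg1, which form most filaments outside muscle, were covered by 6 probes. The 2 probes of Actb gave 0.13 ± 0.17 (SD, n = 5) and -0.017 ± 0.41 (SD, n = 5). On the first, the mice had 0.17, 0.22, 0.23, 0.20 and -0.17 in mice 1 to 5, so mouse 5 alone was negative and the other 4 lay close together. The 4 probes of Actg1 had means of -0.21, -0.074, 0.019 and 0.24. Mouse 3 had the extreme value on both outer probes, at -0.72 and 1.03. Without it the means of these probes were -0.083 and 0.04. Averaged over their probes, Actb gave 0.057 ± 0.21 (SD, n = 5) and Actg1 gave -0.0072 ± 0.075 (SD, n = 5), and the adjusted p were 0.943 and 0.991 by limma.

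Subunits of the Arp2/3 complex had 10 tested probes, 8 of them positive, with a median of 0.082. By mouse, the medians of these probes were 0.057, -0.005, -0.202, -0.101 and -0.073, so 4 of the 5 mice were below 0. The extreme was a probe of Arpc5l, a form of the complex's smallest subunit, whose mice had 0.045, 0.043, 2.56, -0.12 and -0.13 in mice 1 to 5. Mouse 3 alone stood at 2.56 and the other 4 lay near 0. The mean was 0.48 ± 1.17 (SD, n = 5), and -0.041 without mouse 3. The other 3 Arpc5l probes gave -0.18, -0.089 and 0.073, so the signs of the gene's probes differed. Arpc2 and Arpc4, the pair of subunits that holds the complex to the mother filament, were among the tightest, at 0.092 ± 0.17 (SD, n = 5) and 0.043 ± 0.12 (SD, n = 5). Arpc5 gave 0.27 ± 0.64 (SD, n = 4) and Arpc1a 0.11 ± 0.70 (SD, n = 4), with -0.928 in mouse 1 and 0.45 without it. The 2 probes of Actr3, the actin-like subunit Arp3, had wide spreads, at 0.10 ± 1.56 (SD, n = 4) and 0.058 ± 0.72 (SD, n = 5).

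Other actin-related proteins belong to different machines. Actr1a encodes the filament of dynactin, the partner of dynein, and Actr5 and Actr8 encode subunits of the INO80 chromatin remodeller. Of their 5 probes 4 were negative, with a median of -0.24. Actr1a gave -0.0085 ± 0.12 (SD, n = 5) and -0.28 ± 0.56 (SD, n = 5). The second probe had 0.42, -0.36, -0.15, -1.12 and -0.20 in mice 1 to 5, with mouse 1 positive and mouse 4 lowest. Actr8 gave -0.24 ± 0.78 (SD, n = 5) and -0.44 ± 1.28 (SD, n = 4). On the second Actr8 probe mouse 5 had -2.32 and mice 2 and 4 were positive, and without mouse 5 the mean was 0.19. Actr5 gave 0.12 ± 0.34 (SD, n = 5), and -0.02 without mouse 3.

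Capping protein is a direct partner of CIN85 among the measured genes. Capzb, its beta subunit, had 0.061, -0.016, 0.026, 0.31 and 0.50 in mice 1 to 5. Mice 4 and 5 were highest and mouse 2 was just below 0. The mean was 0.18 ± 0.22 (SD, n = 5), its 95% interval ran from -0.10 to 0.46, and limma gave an adjusted p of 0.911. Capza3, the alpha subunit of the testis, had values from both arrays in only 3 mice, 0.26, 0.44 and -0.37 in mice 1, 4 and 5, and was not tested. Carmil1, which removes capping protein from barbed ends, is not a member and gave 2e-04 ± 0.228 (SD, n = 5).

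Tropomodulins cap the pointed end, and tropomyosins lie along the filament and decide which proteins bind it. Of 11 tested probes 7 were positive, with a median of 0.06. Tpm3 probe 6388 had 0.04, 0.085, -0.59, -1.44 and -0.61 in mice 1 to 5. Mice 3, 4 and 5 were negative and mice 1 and 2 slightly positive. The mean was -0.51 ± 0.62 (SD, n = 5), without mouse 4 it was -0.27, and the second Tpm3 probe gave 0.013 ± 0.16 (SD, n = 5). Tpm4 gave 0.33 ± 0.55 (SD, n = 4) and Tmod1 0.26 ± 0.86 (SD, n = 5), where mouse 3 had 1.28 and mouse 5 had -0.93. Without mouse 3 the mean of Tmod1 was 0.004. Tmod2, the neuronal tropomodulin, was near 0 at -0.057 ± 0.17 (SD, n = 5), as was Tmod3 at -0.048 ± 0.18 (SD, n = 5), where mouse 4 stood apart at -0.355. The 2 probes of Tpm1 were positive, at 0.28 ± 0.56 (SD, n = 5) and 0.095 ± 0.11 (SD, n = 5), and those of Tpm2 were 0.06 ± 0.20 (SD, n = 5) and -0.23 ± 0.95 (SD, n = 5), the latter with -1.91 in mouse 1 and 0.19 without it. Without mouse 3 the first Tpm1 probe gave 0.038.

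Profilin loads monomers for growth, and cofilin severs filaments. Pfn1 probe 2958 had -0.057, 0.23, 0.68, 0.18 and 0.27 in mice 1 to 5. Mouse 1 alone was negative and mouse 3 highest. The mean was 0.26 ± 0.27 (SD, n = 5), 0.16 without mouse 3, while the second Pfn1 probe gave -0.02 ± 0.34 (SD, n = 5), or 0.11 without mouse 3. Cfl1, the main cofilin outside muscle, gave -0.25 ± 0.44 (SD, n = 5), with mice 3 and 4 at -0.72 and -0.66. Pfn3, a testis profilin, had the lowest mean of all members, -0.59 ± 0.94 (SD, n = 4), and its mice were split, with 0.018, 0.35, -1.71 and -0.996 in mice 1, 2, 4 and 5.

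The WASP family, which switches on the Arp2/3 complex, and the WASH complex together had 10 tested probes. Of these 8 were positive, and the median was 0.07. Wasf2, a WAVE protein that acts downstream of Rac, had 0.45, 0.015, 0.26, 0.45 and 0.081 in mice 1 to 5 on probe 19226. All 5 mice were positive, and mouse 2 was closest to 0. The mean was 0.25 ± 0.20 (SD, n = 5), and the further Wasf2 probes gave 0.10 ± 0.31 (SD, n = 5) and 0.19 ± 0.63 (SD, n = 5). Without mouse 3 these were -0.021 and -0.081, while probe 19226 stayed at 0.25. The WASH complex, which builds actin on endosomes, had 5 tested probes with a median of 0.04 and a range from -0.14 to 0.095. The lowest, Washc5, was 0.14 without mouse 3. Washc1, its nucleation promoting subunit, gave 0.095 ± 0.095 (SD, n = 5) and Washc2, the subunit that binds retromer, 0.04 ± 0.18 (SD, n = 5). Wasl, the N-WASP of neurons and other tissues, gave 0.02 ± 0.17 (SD, n = 5), and Was, which is restricted to blood-derived cells, 0.27 ± 1.25 (SD, n = 5), or -0.095 without mouse 3.

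Ena/VASP proteins protect growing barbed ends from capping. Vasp had -0.30, -0.47, -0.36 and -1.14 in mice 1, 2, 4 and 5. All 4 mice were negative and mouse 5 lowest. The mean was -0.57 ± 0.39 (SD, n = 4), and -0.38 without mouse 5, its 95% interval ran from -1.02 to -0.11, and limma gave an adjusted p of 0.911. The other family members did not share that sign throughout. Enah, the Mena protein of neurons, gave 0.27 ± 0.31 (SD, n = 4) with mouse 4 negative, and Evl gave -0.058 ± 0.42 (SD, n = 5), or 0.11 without mouse 3.

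Vcl encodes vinculin, which ties filaments to adhesion sites. It had 0.22, 0.036, 1.13, 0.29 and 0.15 in mice 1 to 5. All 5 mice were positive, but mouse 3 stood far above the other 4. The mean was 0.36 ± 0.44 (SD, n = 5), and 0.17 without mouse 3. Cttn, which encodes the branch stabiliser cortactin, had 0.52, 0.014, 0.03, 0.089 and -0.44 in mice 1 to 5. Mice 1 and 5 were opposite, the other 3 were near 0, and the mean was 0.043 ± 0.34 (SD, n = 5). The crosslinkers Actn2 and Actn4 gave -0.26 ± 0.52 (SD, n = 4) and -0.067 ± 0.51 (SD, n = 5).

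**Figure D2:**
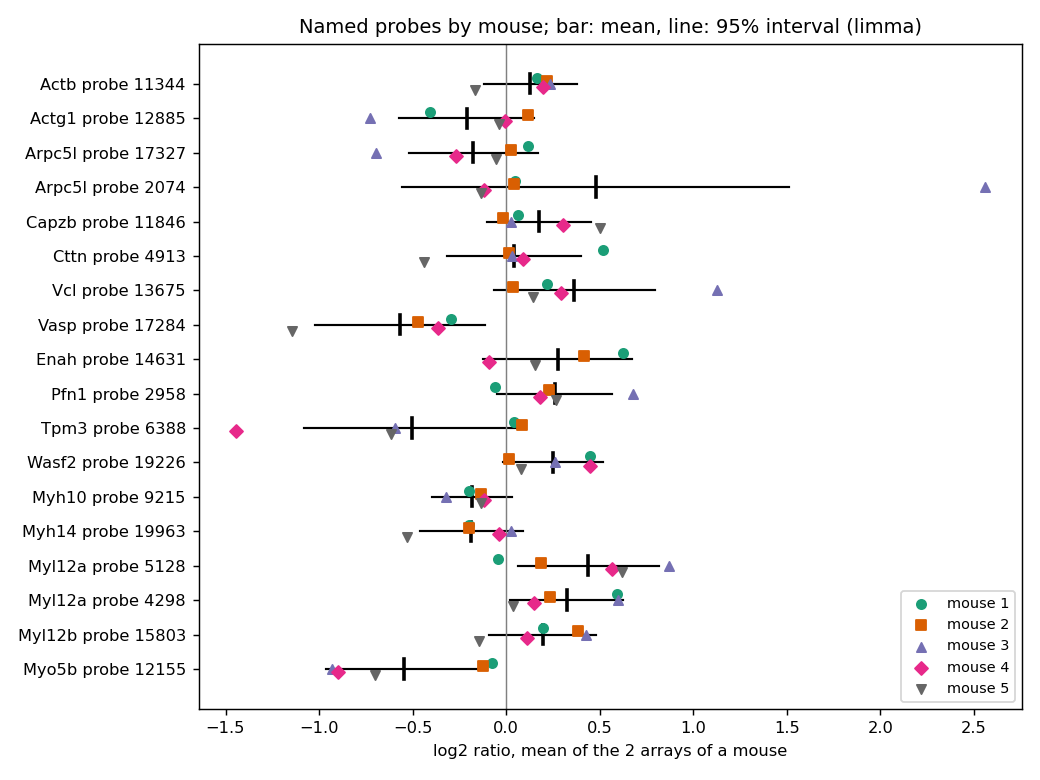
The x axis is the log2 ratio of each mouse (mean of its 2 arrays) for named probes on the y axis; symbols are mice, black bars means and black lines the 95% intervals of limma. Only the intervals of Vasp, Myo5b and the Myl12a probes leave out 0, none of them passes after adjustment, and mouse 3 stands alone for Arpc5l (2.56) and Vcl (1.13).

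Myosin II, the contractile myosin, is built of heavy chains (Myh) and light chains (Myl). The nonmuscle heavy chain Myh10, which is abundant in neurons, had -0.20, -0.13, -0.32, -0.12 and -0.14 in mice 1 to 5. All 5 mice were negative and close to each other as means of 2 arrays. The mean was -0.18 ± 0.084 (SD, n = 5), the interval ran from -0.40 to 0.033, and the adjusted p was 0.911 by limma. The Cy5 and Cy3 arrays had 0.357 and -0.623 in mouse 2 and -0.735 and 0.495 in mouse 4. In mice 1, 3 and 5 both arrays were negative. The orientation term of Myh10 was -0.0235 ± 0.398 (SD, n = 5). Myh14, another nonmuscle heavy chain, gave -0.19 ± 0.22 (SD, n = 5), and Myh9, the one of blood and connective tissue cells, 0.064 ± 0.75 (SD, n = 5), or -0.13 without mouse 3. Smooth muscle Myh11 was negative in all 4 mice with a value, at -0.17 ± 0.12 (SD, n = 4).

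Myl12a and Myl12b encode regulatory light chains of nonmuscle myosin II. Myl12a had 3 tested probes, all with positive means. Probe 4298 had 0.59, 0.24, 0.60, 0.15 and 0.039 in mice 1 to 5. Probe 5128 had -0.044, 0.18, 0.87, 0.56 and 0.62 in mice 1 to 5. On the first probe no mouse was negative, and on the second mouse 1 was just below 0. The means were 0.32 ± 0.26 (SD, n = 5) and 0.44 ± 0.36 (SD, n = 5), and probe 1695 gave 0.044 ± 0.18 (SD, n = 5). Averaged over its probes, Myl12a gave 0.27 ± 0.17 (SD, n = 5) and an adjusted p of 0.921 by limma. Its close copy Myl12b gave 0.20 ± 0.23 (SD, n = 5), and since these genes are near identical, probes of one may read the other. The essential light chain Myl6 was near 0 on both probes, at 0.094 ± 0.22 (SD, n = 5) and -0.0001 ± 0.18 (SD, n = 5).

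Heavy and light chains of striated muscle had no common sign. The 13 tested probes of sarcomeric genes (Myh1, Myh3, Myh4, Myh7, Myh8, Myl1, Myl2, Myl3, Myl4, Myl7, Actn2 and Tmod4), grouped by textbook function, had a median of 0.051 with 8 positive and 5 negative. Myh7 gave 0.33 ± 0.78 (SD, n = 5), where mouse 3 had 1.72 and the other mice lay between -0.22 and 0.069, with a mean of -0.011. The spread between mice of these probes had a median standard deviation of 0.402, beside 0.323 for the 31 tested probes of widely expressed actin and nonmuscle myosin genes. Beside them, 10 other markers of striated muscle had 3 positive and 7 negative means with a median of -0.078, and their mouse medians ran from -0.19 to 0.068. Their part in the muscle values was not tested.

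Unconventional myosins carry membranes and cargo. Myo5b, a motor of recycling endosomes, had -0.078, -0.13, -0.93, -0.90 and -0.70 in mice 1 to 5. All 5 mice were negative, mice 1 and 2 near 0 and mice 3, 4 and 5 well below. The mean was -0.55 ± 0.42 (SD, n = 5), with an interval from -0.96 to -0.13. It had the smallest unadjusted p of all members, 0.0177 by limma, and an adjusted p of 0.911. Myo1c, a membrane-linked motor, had the widest spread between mice of all tested members, at -0.36 ± 1.58 (SD, n = 4). Its mice had 1.19, -0.46, -2.52 and 0.33 in mice 1, 2, 3 and 4, and without mouse 3, the lowest, the mean was 0.35. The other tested unconventional myosins ran from -0.20 for Myo18a to 0.29 for Myo1g. Myo1f and Myo1g are myosins of blood-derived cells, with -0.18 ± 0.19 (SD, n = 4) for Myo1f. The 5 tested microglia and macrophage markers (2 positive, 3 negative) had a median of -0.13, and the share of such cells in these values was not tested.

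The 8 member probes that were not tested belonged to Actn3, Capza3, Myl1, Myo10, Myo3b, Tpm2, Tpm4 and Wasf3. They had values on 4 to 8 arrays and on both arrays of 0 to 3 mice. Wasf3, the WAVE protein of brain, was negative in the 3 mice with both arrays, at -1.56, -0.34 and -0.33 in mice 1, 2 and 5. Actn3, the alpha-actinin of fast muscle, ranged from -1.53 to 1.41 over 3 mice. One value among the members was the extreme repeated ratio of its array, -16.74 for Myo3b on the mouse 3 array with the mutant in Cy3. All such ratios on the arrays with the mutant in Cy3 were negative, and the Myo3b probe was not tested.

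Where a gene had several probes, they often went apart. For 16 member genes with 38 tested probes, the lowest and the highest probe mean differed by a median of 0.24. In 10 of the 16 the probes had both signs, and in 6 (Actr1a, Actr3, Actr8, Myl12a, Tpm1 and Wasf2) all had the same. The widest differences were those of Arpc5l, at 0.66, Tpm3, at 0.52, and Actg1, at 0.45. Actr3 and Myo1e had the closest probes, 0.043 and 0.047 apart. Differences between probes of a gene were not tested, and these counts were not made for genes outside the members.

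**Figure D3:**
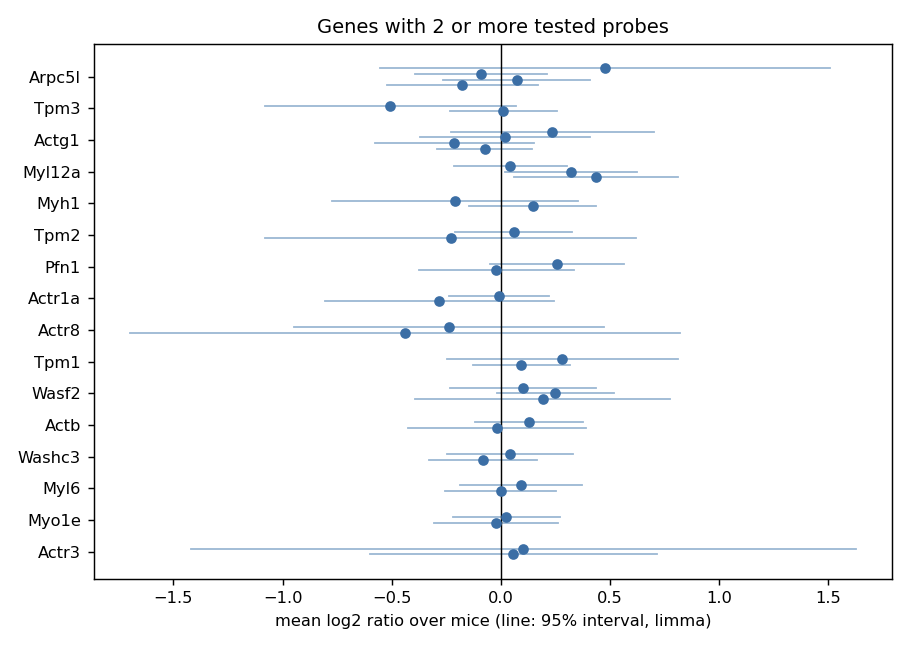
Mean log2 ratio (x axis) of every tested probe of the 16 member genes with 2 or more tested probes (y axis, ordered from the largest to the smallest difference between probes); lines are 95% intervals of limma. Probes of 10 genes fall on both sides of 0, and Arpc5l, with 4 probes, has the largest difference, 0.66.

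Member values differed in sign between the dye orientations more often than not. In 62 of 85 tested member probes (72.9%) the mean of the arrays with the mutant in Cy5 and the mean of those with the mutant in Cy3 had opposite signs, as in 70.8% of all tested probes. Of these, 28 were positive with Cy5 and 34 with Cy3, while 12 were positive and 11 negative in both. Over member probes, arrays of the same orientation correlated with a median r of 0.215 over 20 pairs, and arrays of opposite orientation from different mice with -0.246 over 20 pairs. The 2 arrays of the same mouse had a median r of -0.318. These correlations are across probes, which are not independent, and all arrays share the pool. Over all probes the medians were 0.152, -0.149 and -0.182.

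**Figure D4:**
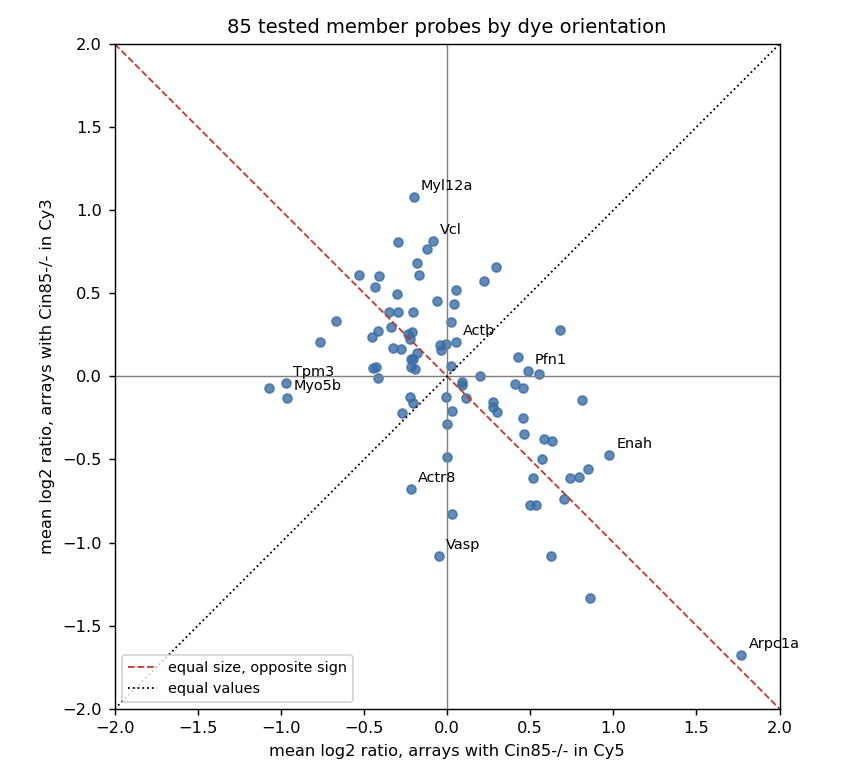
Each of the 85 tested member probes is placed by its mean log2 ratio on the arrays with Cin85-/- RNA in Cy5 (x axis) and in Cy3 (y axis). The dashed line marks equal size with opposite sign and the dotted line equal values; 62 points lie in the quadrants of opposite sign, with Arpc1a (1.77 and -1.68) farthest out.

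Taken as the difference from the pool, the orientation term called no member either. The smallest adjusted p by limma was 0.0988, and 0% of all 16939 probes passed. An unadjusted p under 0.05 was found for 28 member probes of 85 (32.9%), 12 positive and 16 negative, where 27.6% of all probes had one. Of the member genes 19 of 63 (30.2%) had one, and 24.1% of all genes. Positive terms made up 43.5% of members and 43.6% of all probes. The same sign in all 5 mice was seen in 25 of 69 members (36.2%) and in 30.5% of all probes. The median of the members was -0.078, beside -0.064 for all probes. The interval of limma on this term lay within 1.5-fold in either direction for 29 member probes (34.1%) and within 2-fold for 66 (77.6%). These shares were lower than for the values as deposited, and over all probes they were 38.9% and 79.5%. Since none was called, what follows are values and not changes.

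Myl6 probe 8496 had orientation terms of 0.99, 0.30, 0.86, 0.75 and 0.61 in mice 1 to 5. Myh1 probe 3962, a heavy chain of fast muscle, had 0.58, 0.68, 0.32, 0.96 and 0.96 in mice 1 to 5. Actb probe 18947 had 0.52, 0.69, 0.27, 1.05 and 1.05 in mice 1 to 5. All 5 mice were positive on each of the 3 probes. The means were 0.70 ± 0.26 (SD, n = 5), 0.70 ± 0.27 (SD, n = 5) and 0.72 ± 0.34 (SD, n = 5). Enah gave 0.75 ± 0.29 (SD, n = 4), positive in all 4 mice. Tmod1 and Washc2 were negative in all 5, at -0.55 ± 0.25 (SD, n = 5) and -0.57 ± 0.27 (SD, n = 5). The adjusted p was 0.0988 by limma for these 6 probes. The second probes gave other values, and the other Actb probe gave -0.078, the other Myl6 probe -0.22 and the other Myh1 probe -0.45. In 11 of the 16 member genes with several tested probes, the orientation terms of the probes had both signs, a count not made for other genes.

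Capzb gave -0.15 ± 0.41 (SD, n = 5) on this term and Cttn -0.018 ± 0.32 (SD, n = 5), with mice of both signs. Vasp turned to 0.52 ± 0.59 (SD, n = 4) and Vcl to -0.45 ± 0.59 (SD, n = 5), opposite in sign to their means as deposited. Myo5b stayed negative at -0.42 ± 0.74 (SD, n = 5), with 3 of 5 mice negative. Wasf2 probe 19226 turned to -0.43 ± 0.24 (SD, n = 5), negative in all 5 mice, and the further Wasf2 probes gave 0.35 and 0.26. All 3 Myl12a probes turned negative. Probe 5128 gave -0.64 ± 0.44, probe 4298 -0.44 ± 0.65 and probe 1695 -0.34 ± 0.24 (SD, n = 5 each). Arpc1a had the largest value, 1.78 ± 1.54 (SD, n = 4), negative in mouse 1 and positive in the other 3 mice measured, at -0.20, 2.03, 1.76 and 3.55 in mice 1, 2, 4 and 5. Of the 33 named and tested member probes, 17 had opposite signs under the 2 readings, a count not made over all probes. With arrays scaled to equal spread, 1 member passed (Myh1 probe 3962, adjusted p = 0.0497 by limma), where 1.52% of all probes did. With all 10 arrays in the fit 17 members passed, against 12.1% of all probes, but there the arrays of a mouse count as nearly separate replicates, with a within-mouse correlation of -0.0196, and 10 arrays of 5 mice overstate the number of animals.

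Genes of actin regulation outside the member rule gave no call either. Of 79 listed genes 51 were tested, 0 passed in either direction as deposited, 26 were positive and 25 negative, and the median was 2e-04. All 4 tested genes of the WAVE complex, which holds Wasf2 in check until Rac binds, were negative, with Abi2 at -0.48 ± 0.851 and Nckap1 at -0.097 ± 0.156 (SD, n = 5 each). The orientation term gave 3 of these 4 as positive. Severing, sequestering and turnover genes were 7 positive and 5 negative, crosslinkers and membrane linkers 8 and 8, nucleators 2 and 1, and regulators of myosin 3 and 2. None passed on the orientation term. Markers of other cells and tissues gave no call. Kidney markers had 3 positive and 2 negative means with a median of 0.22, and neuronal markers 1 and 5 with -0.056. Smooth muscle and pericyte markers had 3 and 4 with -0.055, and endothelial markers 2 and 2 with -0.059. On the orientation term these medians were, in the same order, -0.19, -0.18, 0.04 and 0.12. There 2 kidney markers were positive and 3 negative. The part of these marker lists in the member values was not tested.

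Some member promoters share a motif that the member rule did not use. The CArG box is the sequence that serum response factor binds, and this factor drives many actin and muscle genes when free actin monomers fall. RefSeq promoters of GRCm38.p6, from 250 bases before to 50 after a transcript start, were held for 56 of the 68 member genes. A CArG box, which reads the same on both strands as a motif, was found in 8 of their 69 promoters (11.6%), and in 1.63% of all 32851 promoters. The 8 genes were Actg1, Arpc4, Myh4, Myl3, Myl6, Myl7, Myo1e and Vcl. The sequences of 6 are shown, because they are where these members share letters that the rule did not use, each 5′ to 3′ on the strand of the gene with the box in capitals.
Actg1: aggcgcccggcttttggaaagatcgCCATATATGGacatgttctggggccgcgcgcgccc
Vcl: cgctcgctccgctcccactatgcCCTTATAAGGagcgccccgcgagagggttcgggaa
Arpc4: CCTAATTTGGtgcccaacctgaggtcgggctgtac
Myo1e: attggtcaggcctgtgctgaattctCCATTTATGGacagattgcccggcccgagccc
Myl3: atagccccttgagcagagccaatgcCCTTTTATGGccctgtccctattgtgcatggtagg
Myl7: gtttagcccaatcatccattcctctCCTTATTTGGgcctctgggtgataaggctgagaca
The boxes begin 90 bases before the start in Actg1, 227 in Vcl, 250 in Arpc4, 32 in Myo1e, 85 in Myl3 and 61 in Myl7. The windows lie at chr11:120348551-120348610 for Actg1, chr14:20929148-20929205 for Vcl, chr6:113377863-113377897 for Arpc4, chr9:70207293-70207349 for Myo1e, chr9:110763568-110763627 for Myl3 and chr11:5898809-5898868 for Myl7. Those of Actg1 and Myl7 are on the minus strand, and all 6 windows shown lie upstream of the gene. Of the windows not shown, that of Myh4 lies upstream of its gene, while that of Myl6 lies inside its gene. A match is a description of the letters and does not show that the factor binds. The 8 genes with a box had a median of 0.045, with 7 positive, and the 45 other tested member genes with a promoter had 0.04, with 25 positive. On the orientation term the medians were 0.095 and -0.12, with 4 of the 8 positive. None of the 8 passed, by limma on gene means.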

How the data were processed

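Brain RNA was column-purified and its cDNA coupled to Cy3 or Cy5, per the labels' protocols. The authors deposited log2 ratios for 20355 probes on 10 arrays, with no scanner, background correction or normalization stated in the sources used here. Probe names come from the platform annotation, in which 14030 probes carry 1 symbol, 5 several and 6320 none. After median centring, both arrays of each mouse were combined into a mean. limma 3.58.1 (lmFit, eBayes; R 4.3.3) compared the 5 mouse means with 0, over 16939 probes measured in both orientations in 4 or 5 mice. Benjamini-Hochberg adjusted p under 0.05 was called. The script was tested on simulated data. The members, lists and tests were chosen with earlier results of these data known. Named were all probes of the actins, capping protein, cortactin, Vasp and Vcl, the 12 member probes with the smallest p, 2 per role, and 6 on the orientation term. Many further members, nearly as many again, are named for their role, chosen after their values were seen. Depth cannot be given for arrays, and their number limits the precision. Nothing in the labels says whether the mice are littermates, so p-values measure only the spread between these 5 mice against 1 pool. The alternatives were no centring, scaling to equal median absolute values, other filters, single dye orientations, all 10 arrays with the mouse as a block, missing extreme ratios and leaving out each mouse.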

Additional observations from a re-analysis of the deposited data

Results flagged for a closer look

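A mouse stood far from the others on 10 of the 85 tested member probes, by Dixon's ratio of the gap to the range at the 95% level, which chance alone gives in about 1 of 20 groups. The share over all tested probes was not computed, so this count is not set apart from the arrays at large. Mouse 3 was the mouse apart in 6 of the 10. It had 2.56 on the Arpc5l probe with the highest mean, while the others lay between -0.133 and 0.045, with a mean of -0.041. For Myh7 it had 1.715, the others lay between -0.216 and 0.069, and their mean was -0.011. The Tpm1 probe with the higher mean had 1.266 in mouse 3 and a mean of 0.038 without it. On a Wasf2 probe mouse 3 had 1.289, and the mean of the rest was -0.081. Vcl had 1.128 in mouse 3, with 0.036 to 0.292 in the others and a mean of 0.17. Myl1, a light chain of fast muscle, had -1.022 in mouse 3 and a mean of 0.16 in the others. Mouse 1 stood apart for Arpc1a, at -0.928 with 0.36 to 0.554 in the 3 other mice measured, and for a Tpm2 probe, at -1.914 with 0.053 to 0.356 in the others. Mouse 4 had -0.355 for Tmod3, with -0.026 to 0.095 in the others. Mouse 5 had -0.165 on the Actb probe with the higher mean, with 0.166 to 0.233 in the others and a mean of 0.20.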

How the results depend on the processing

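As deposited, 0 member probes and 0 member genes passed by limma with no centring, scaling, both other filters, extreme ratios set to missing and each mouse left out. For probes 0 also passed in both single orientations and with all 10 arrays and the mouse as a random block, settings not run for genes. The smallest adjusted p of member probes was 0.0831, with the mutant in Cy5 only. At an unadjusted p under 0.05 the count was 4 of 85 as deposited. On the orientation term, 1 of the 85 members passed after scaling, where 1.52% of all probes did. With all 10 arrays and the mouse as a random block 17 members passed, where 12.1% of all probes did. That alternative was chosen after seeing the data. The other settings and each mouse left out gave 0. The median of the members, 0.0401, became -0.0783 under the other reading of the swap and -0.0045 with the mutant in Cy5 only, and ran from 0.0101 to 0.0365 without single mice; on the orientation term it ran from -0.108 to -0.0299 without single mice. The share of positive members, 57.6%, became 43.5% under that reading and 48.4% with the mutant in Cy5 only, and ran from 52.3% to 60.9% without single mice. Scaling gave 51.8%. Of all 85 tested members, 36 changed sign and 77 changed sign or moved by over 1.5 times when some mouse was left out. The opposite sign under the other reading was seen in 40. These counts were not made over all tested probes, so they are not set apart from the arrays at large. Of the 33 probes named by rule, 1, Washc2, changed sign on scaling or without centring. No paired analysis was possible because there is only 1 group, and the mouse pairs its 2 arrays. The cause of these differences was not tested.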
